A study of Rattus norvegicus with 20 samples.

Results

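The effect of retinoic acid and forskolin (RA/Fsk) on cultured rat progenitors was followed by comparing RA/Fsk-treated cells with the untreated low-density cells (LD) they were derived from. The comparison covers 8 of the 20 arrays of the series, chosen by their labels: 4 RA/Fsk arrays, numbered 1 to 4, and 4 LD arrays, numbered 1a, 1b, 3 and 4. LD arrays 1a and 1b carry the same number and were averaged on the log2 scale, which left 4 RA/Fsk against 3 LD cultures. Per the labels, LD cells are CCg progenitors at low density and RA/Fsk is the treatment used to derive neurons from them. CCg is not expanded in the labels, and the dose, duration, strain and age were not stated in any source used here. The remaining 12 arrays hold LD cells treated with FBS (fetal bovine serum) to derive astrocytes, 4 cultures, and high-density progenitors (HD), 3 cultures. They entered the same fit and are given as values beside the RA/Fsk results. Whether differently numbered arrays come from independent cultures is unstated, and the p-values therefore cover only sample-to-sample spread, which may be technical.

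Retinoic acid enters the nucleus and binds retinoic acid receptors, which pair with retinoid X receptors on repeated AGGTCA-like sequences and switch on genes such as Hox genes, Nr2f1 and the receptor Rarb. Forskolin, a plant diterpene, activates adenylyl cyclase and so raises cyclic AMP (cAMP), which frees the catalytic subunit of protein kinase A to phosphorylate CREB at the promoter motif TGACGTCA or its shorter form TGACG. The agents are used together on neural progenitors to favour neuronal differentiation, which is usually followed by a loss of proliferation genes and a gain of neuronal tubulin, neurofilament and synaptic genes.

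Levels are log2(intensity + 4.99), and a difference, given ± its standard error (SE), is RA/Fsk minus LD on that scale. The threshold was an adjusted p under 0.05 in limma, and only probe sets that passed it are said to have risen, fallen or changed. Of 8740 probe sets, 721 changed (8.25%), 412 of them upward (4.71%) and 309 downward (3.54%). At least 2-fold changes numbered 231 up and 129 down, and 676 of the 721 had cultures that did not overlap between the groups, against 15.5% of all probe sets (7.16% with RA/Fsk above and 8.39% with RA/Fsk below). With 1 probe set for each of 4736 genes, 423 genes changed (8.93%), 266 upward (5.62%) and 157 downward (3.32%), and the median difference over all genes was -0.03. These shares are the background for the gene lists below. RA/Fsk arrays correlated with each other at r = 0.94 to 0.968, LD cultures at 0.94 to 0.957 and arrays of the 2 groups at 0.916 to 0.947, over all probe sets. The count of 721 was 362 when only the RA/Fsk and LD cultures were fitted, and the 309 falls became 185 without LD culture 3. In these bulk samples a change in the number of cells of a type and a change in RNA per cell cannot be told apart.

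Tesc, which encodes the EF-hand calcium-binding protein tescalcin, showed the largest rise of the array. It stood at 4.92, 4.0 and 3.32 in LD cultures 1, 3 and 4 and at 10.56, 10.79, 10.82 and 10.75 in RA/Fsk cultures 1 to 4. The difference was 6.65 ± 0.32 (SE, adjusted p = 1.29e-09). LD levels lay below 5.76, the median of all values, whereas every RA/Fsk level was far above it and the 4 agreed closely. Ccl2, a chemokine that attracts monocytes, rose by 4.71 ± 0.27 (adjusted p = 1.34e-08), from 6.84, 6.08 and 6.0 in LD to 11.10, 11.04, 11.02 and 10.92 in RA/Fsk, and its other probe set rose by 5.72. Ccnd2, the cell cycle regulator cyclin D2, rose by 3.70 ± 0.32 (adjusted p = 1.39e-06), from 8.07, 8.99 and 7.94 to 11.67, 12.09, 12.46 and 11.92. The groups were separate for all 3 genes.

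The other rises among the 12 largest covered secreted enzymes, adhesion and signalling. Sod3, the extracellular superoxide dismutase, rose by 3.64, the secreted protease precursor Pgc by 3.39, the transcription factor Egr2 by 3.31 and the chemokine Cxcl14 by 3.08. Abhd14b, a small hydrolase, rose by 3.07, Camk2n1, an inhibitor of calcium/calmodulin-dependent kinase II, by 3.04, Plat, the tissue plasminogen activator, by 3.02, and Pmepa1, a membrane protein that dampens TGF-beta signalling, by 3.01. Itga7, a laminin-binding integrin subunit, rose by 3.77, but its 2 other probe sets, at 0.56 and 0.70, did not pass, nor did a further one of Cxcl14, at 0.82. For both genes the brightest probe set is among those that did not pass. All 12 had separate cultures and passed under every alternative run. In most of them LD levels were near or below the median of all values, so their size depends on the pseudocount. With 50 in place of 4.99 the rise was 4.77 for Tesc, 2.22 for Itga7, 1.93 for Pgc, 1.29 for Cxcl14, 1.98 for Abhd14b and 1.95 for Plat.

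**Figure D1:**
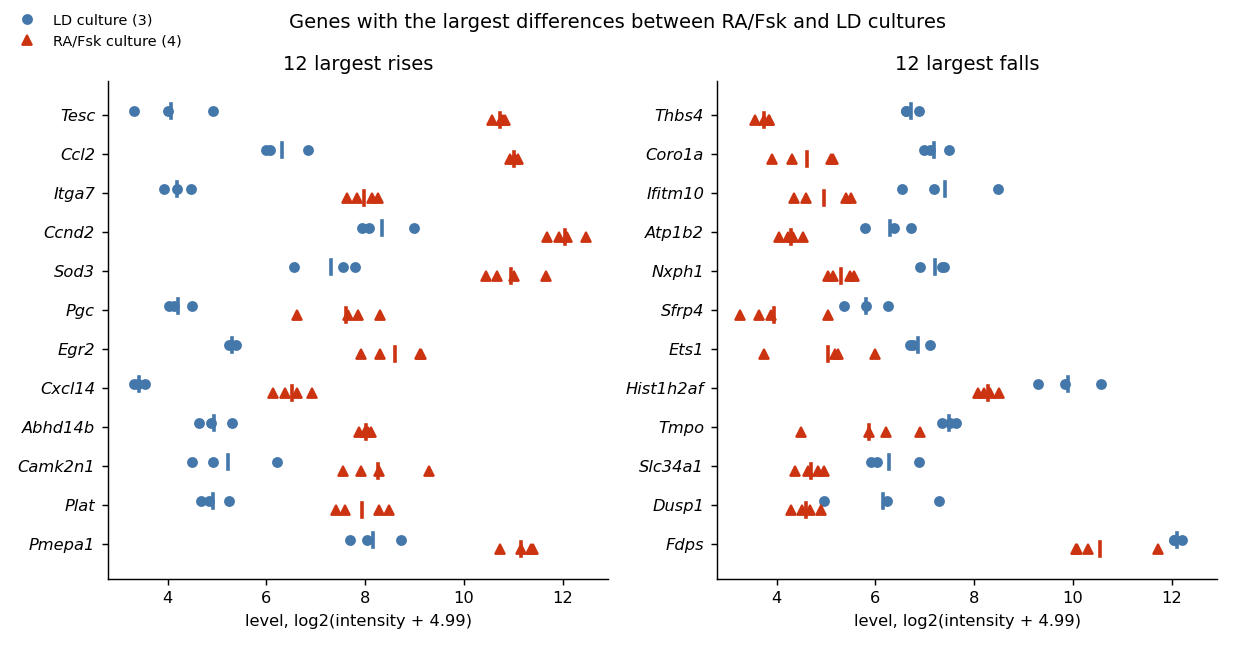
Level of each LD culture (circles, n = 3) and RA/Fsk culture (triangles, n = 4) for the 12 largest rises (left) and the 12 largest falls (right), with group means as bars, on the log2(intensity + 4.99) scale. Tesc moves from 3.32 to 4.92 in LD to 10.56 to 10.82 in RA/Fsk, and no gene shown has overlapping groups.

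The falls were smaller. Thbs4, a thrombospondin of the matrix, fell by 2.96 ± 0.32 (adjusted p = 2.04e-05), from 6.62, 6.89 and 6.62 in LD to 3.85, 3.56, 3.85 and 3.74 in RA/Fsk. Coro1a, an actin-binding protein best known from leukocytes, fell by 2.58 ± 0.33 (adjusted p = 0.000101), and Nxph1, a secreted ligand of neurexins, fell by 1.91 ± 0.36 (adjusted p = 0.00278). The core histone gene Hist1h2af fell by 1.63 ± 0.22 (adjusted p = 0.000147), and Fdps, an enzyme of the mevalonate pathway, fell by 1.56 ± 0.28 (adjusted p = 0.00222). These 5 passed under every alternative run, and the pseudocount of 50 brought Thbs4 to -1.36, Coro1a to -1.44 and Nxph1 to -1.19. The transcription factor Ets1 fell by 1.82 ± 0.37 (adjusted p = 0.0045), but not in the fit of the 2 groups alone (0.0588, with 0.000479 to 0.0683 over the alternatives). The Wnt antagonist Sfrp4 fell by 1.86 ± 0.41 (adjusted p = 0.00905) and lost its call without LD culture 4 (0.0506, with 0.00108 to 0.0782 over the alternatives).

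The rest of the 12 rested on less, among them Dusp1, at -1.57, which is described with the cAMP response genes below. The differences were -2.43 for Ifitm10, an interferon-induced transmembrane protein, -2.01 for Atp1b2, a sodium pump subunit, -1.62 for Tmpo, a protein of the nuclear lamina, and -1.58 for Slc34a1, a phosphate transporter. Ifitm10 was no longer called without LD culture 3 (adjusted p = 0.169), LD culture 4 (0.0708), RA/Fsk culture 2 (0.0858) or RA/Fsk culture 4 (0.0748). Tmpo lost its call without any single LD culture (0.118, 0.092 and 0.102 for 1, 3 and 4) and without RA/Fsk culture 2 (0.1) or 3 (0.0659), and Slc34a1 without LD culture 1 (0.0823). None of the other probe sets of these last 3 genes passed. For Atp1b2 they differed by 0.69 and 0.41, for Tmpo by -0.63 to -0.02, with the brightest at -0.19, and for Slc34a1 by -0.26 to 0.34. The probe sets that fell were not the brightest of these genes. The HD cultures, which were not treated, differed from the same LD cultures by -1.71 for Atp1b2 and -1.52 for Slc34a1 (adjusted p = 0.116 and 0.101).

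**Figure D2:**
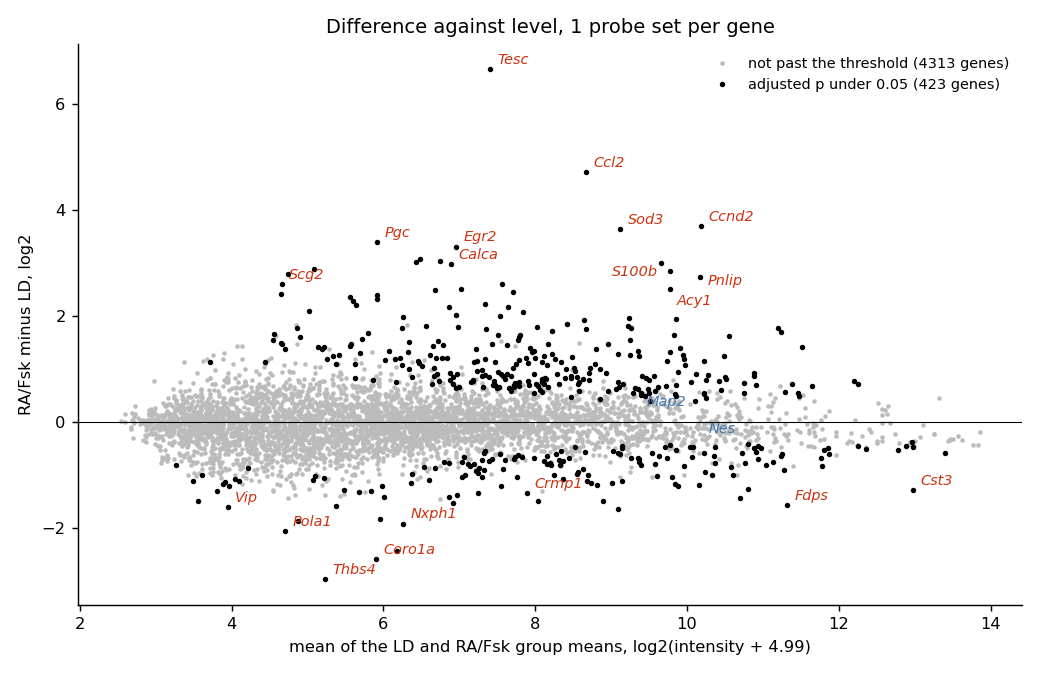
RA/Fsk minus LD difference (log2) against the mean of the 2 group means, for 4736 genes with 1 probe set each, where black points passed (423 genes) and grey points did not. Rises reach 6.65 (Tesc), falls reach -2.96 (Thbs4), and the neuronal gene Map2 and the progenitor gene Nes lie near 0.

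The neuron label was checked against genes of the neuronal cytoskeleton and growth cone. Of 28 measured, 0 rose, 3 fell and 25 did not pass, with a median difference of -0.16 (-0.23 to -0.12 over the alternatives), and 1 rose without LD culture 3. Of all genes, 5.62% rose and 3.32% fell. Crmp1, a collapsin response mediator of growth cones, fell by 1.34 ± 0.18 (adjusted p = 0.000171), from 8.35, 8.72 and 8.62 to 6.87, 7.24, 7.30 and 7.49. Gap43, a membrane protein of growing axons, fell by 0.88 ± 0.21 (adjusted p = 0.0121), from 9.13, 9.10 and 9.0 to 8.40, 7.81, 7.96 and 8.60. Stmn1, which destabilises microtubules, fell by 0.70 ± 0.17 (adjusted p = 0.019), a call lost without LD culture 3 (0.087) or 4 (0.056). For Crmp1, Gap43 and Stmn1 the RA/Fsk cultures all lay below the LD cultures. The call of Gap43 ended in the fit of RA/Fsk and LD cultures 1, 3 and 4 paired by number (0.0575, with 0.00603 to 0.0575 over the alternatives).

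Of the neuronal markers named whatever their result, Gap43 fell and Scg2, given below, rose. Map2, Mapt, Nefl, Syp, Syn1 and Snap25 did not pass, and LD cells already held several of them. The dendritic protein gene Map2 stood at 8.87, 9.44 and 9.52 in LD and at 8.93, 9.88, 9.37 and 9.73 in RA/Fsk, a difference of 0.20 with a 95% interval of -0.25 to 0.65. The axonal gene Mapt differed by 0.12 (-0.25 to 0.49), the neurofilament gene Nefl by 0.46 (-0.59 to 1.51), and the synaptic vesicle genes Syp by 0.41 (-0.24 to 1.07) and Syn1 by -0.01 (-0.49 to 0.47). Snap25, of the release machinery, differed by 0.06 (-0.66 to 0.79). For all of these the cultures of the 2 groups overlapped, and at these probe sets the intervals of Map2, Mapt, Syn1 and Snap25 exclude a 2-fold rise. Dimmer probe sets of Map2, at 0.38 (-0.59 to 1.35) and 0.37 (-0.45 to 1.20), and of Snap25, at 0.18 (-0.66 to 1.02), do not exclude it. The remaining further probe sets of Map2, Mapt and Snap25 do, and none of the further probe sets passed. Nefl and Snap25 were at or near the median of all values in both groups, where small differences are poorly measured. Tubb3, the neuronal tubulin often used as the first marker of new neurons, has no probe set of its own in the annotation used, and nor have Gfap, Sox2 and Mki67.

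**Figure D3:**
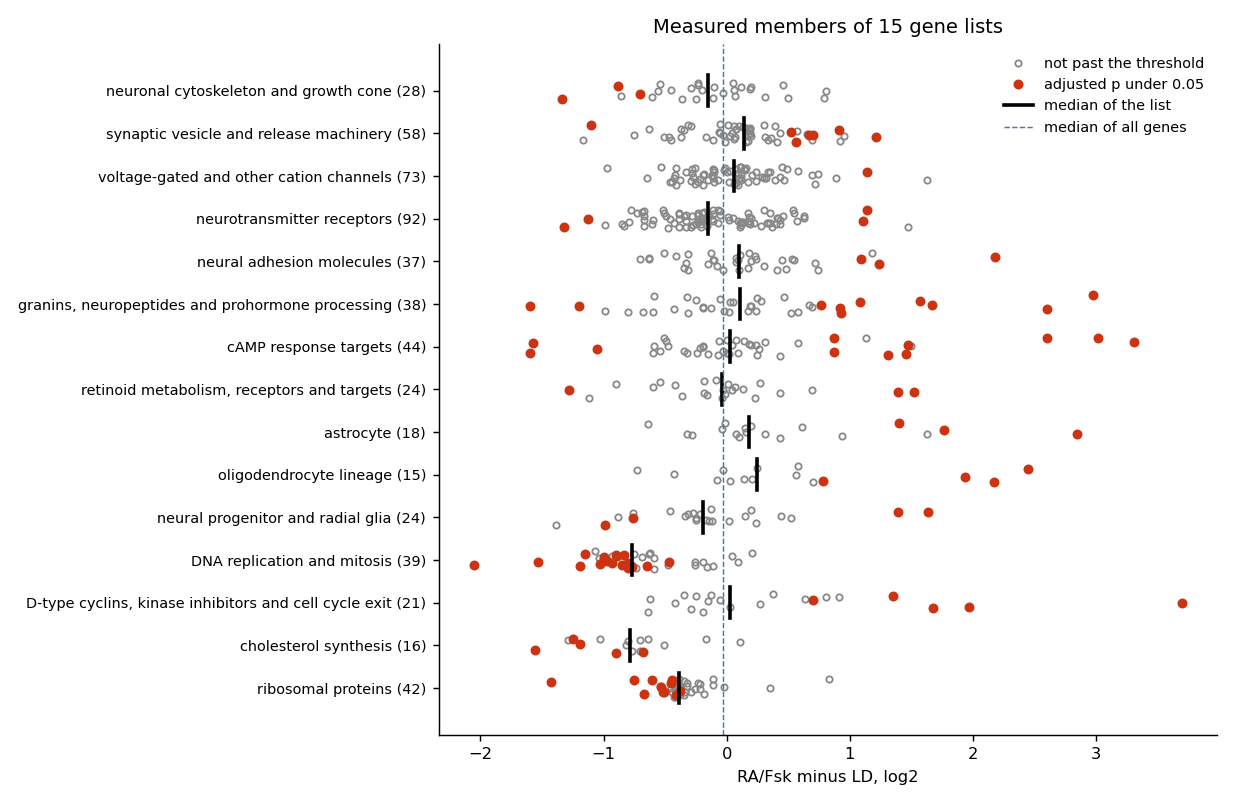
RA/Fsk minus LD difference (log2) of every measured member of 15 gene lists, with filled points for genes that passed, open points for those that did not, a bar at each list's median and a dashed line at the median of all genes (-0.03). DNA replication and cholesterol genes lie mostly to the left (medians -0.77 and -0.78), while the neuronal lists centre between -0.16 and 0.14 with single members far out.

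Of 58 genes of synaptic vesicles and release, 6 rose and 1 fell (median 0.14), beside 5.62% and 3.32% of all genes. The 6 are Dnm1, a dynamin of vesicle endocytosis, at 0.91, Bin1, its membrane-bending partner, at 0.70, the vesicle GTPase Rab3a at 1.21, Napa, which takes SNARE complexes apart, at 0.52, and the syntaxins Stx4 at 0.67 and Stx5 at 0.56. The transporter Slc18a1, which loads monoamines into vesicles, fell by 1.10. Of the 7 genes called, 0 passed under every alternative run. The 6 rises became 3 without LD culture 1, 2 in the fit of the 2 groups alone and 0 in the paired fit of RA/Fsk and LD cultures 1, 3 and 4, where the adjusted p was 0.0581 for Dnm1 and 0.0635 for Bin1. Slc18a1 lost its call without LD culture 1 or 4 or RA/Fsk culture 4, and Napa without LD culture 1 (0.0763) or 3 (0.104). Rab3a was not called without LD culture 3 (0.0586, with 0.00244 to 0.0911 over the alternatives). Of 73 cation channel genes 1 rose, the calcium channel subunit Cacna1d, by 1.14, and 0 fell, and 2 rose without RA/Fsk culture 3. Of 92 neurotransmitter receptor genes 2 rose, the ATP-gated channel P2rx4 by 1.14 ± 0.19 (adjusted p = 0.00119) and the adenosine receptor Adora2a by 1.11, and 2 fell, the glutamate receptor Grin2a by 1.32 and the glycine receptor Glra3 by 1.13. P2rx4 passed under every alternative run. Cacna1d, Adora2a, Grin2a and Glra3 did not (highest adjusted p 0.155, 0.166, 0.161 and 0.188): Cacna1d lost its call without LD culture 1 or 3 or RA/Fsk culture 1, 2 or 4, and Adora2a without LD culture 3 or 4 or RA/Fsk culture 1, 2 or 4. Grin2a lost it without LD culture 1 or 4 or RA/Fsk culture 2 or 3, and Glra3 without LD culture 1 or 4 or RA/Fsk culture 1, 2 or 3. None of the further Cacna1d probe sets passed, at -0.18, 0.01, 0.17 and 0.36, nor did a further one of Grin2a, at -0.44. The shares of channel and receptor genes that passed were below the 8.93% of all genes.

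Of 37 neural adhesion genes 3 rose and 0 fell (median 0.10), beside 5.62% and 3.32% of all genes. Ntm and Opcml, lipid-anchored adhesion proteins of the same family, rose by 2.18 ± 0.30 (adjusted p = 0.000169) and 1.24 ± 0.25 (adjusted p = 0.0045). Ntm stood at 5.41, 5.81 and 6.11 in LD and at 8.31, 7.98, 7.69 and 7.84 in RA/Fsk, and Opcml at 7.13, 7.86 and 7.49 and at 8.46, 9.34, 8.41 and 8.71. The axonal adhesion gene Nrcam rose by 1.09 (adjusted p = 0.0315). Its call was lost without LD culture 3 (0.161) or 4 (0.125) or RA/Fsk culture 2 (0.0619) or 4 (0.0539), with 0.000639 to 0.191 over the alternatives.

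Secretory peptides are stored in neuroendocrine cells and neurons and cut from precursors by processing enzymes. Of 38 such genes measured, 8 rose and 2 fell, a share of rises above the 5.62% of all genes, with a median of 0.11. Calca, which encodes calcitonin and the neuropeptide CGRP, rose by 2.98 ± 0.36 (adjusted p = 5.46e-05), from 6.19, 5.13 and 4.88 to 8.55, 8.90, 7.76 and 8.30, and its other probe set rose by 2.13. Scg2, a granin that also yields the peptide secretoneurin, rose by 2.60 ± 0.38 (adjusted p = 0.000306), from 3.87, 2.98 and 3.25 to 5.55, 6.22, 5.79 and 6.29. Both were low in LD, and every RA/Fsk culture lay above every LD culture. Npy, the neuropeptide Y gene, rose by 1.57 (adjusted p = 0.0143, 0.0868 without LD culture 3, with a highest value of 0.15 over the alternatives). Cpe, a carboxypeptidase of prohormone processing, rose by 1.08 and Adm, a peptide of the calcitonin family, by 1.67. Vip, the vasoactive intestinal peptide gene, fell by 1.60 ± 0.26 (adjusted p = 0.000956), from 4.39, 4.97 and 4.89 to 3.10, 3.20, 3.48 and 2.83, all below the median of all values. Nppc, the C-type natriuretic peptide gene, fell by 1.20 ± 0.25 (adjusted p = 0.00537). A further Nppc probe set, at -0.27 (adjusted p = 0.833), did not pass.

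In this group Calca, Scg2, Vip and the amidating enzyme gene Pam (0.77 ± 0.15, adjusted p = 0.00389) passed under every alternative run. For Pam this concerns 1 of its 7 probe sets, as the other 6 did not pass. With a pseudocount of 50 the differences were 0.94 for Scg2 and -0.42 for Vip. The 8 rises became 5 without LD culture 3 or RA/Fsk culture 2 and 4 without LD culture 4 or RA/Fsk culture 4. They were 5 with median centring or in the paired fit of the 2 groups, and 3 in the fit of the 2 groups alone. Cpe lost its call without LD culture 3 (0.104) or 4 (0.121) or RA/Fsk culture 1 (0.0522), 2 (0.0655) or 4 (0.0622). Adm lost it without LD culture 1 (0.14) or 4 (0.102) or RA/Fsk culture 1 (0.08), 3 (0.0897) or 4 (0.0834). Chgb, another granin, differed by 0.05 (-0.86 to 0.96), and HD cells, although untreated, held Vip at -1.47 (adjusted p = 0.0166) relative to the same LD cultures.

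Forskolin acts through cAMP, and 44 known cAMP response genes were measured. Of these 8 rose and 3 fell (median 0.03), beside 5.62% and 3.32% of all genes. The genes at the top were Egr2, already given, at 3.31 ± 0.40 (adjusted p = 5.41e-05), Plat, Scg2, the early response gene Fos at 1.47 ± 0.31 (adjusted p = 0.00667), and Klf9, a zinc finger factor, at 1.46 ± 0.18 (adjusted p = 5.68e-05). Egr2 stood at 5.25, 5.28 and 5.38 in LD and at 8.30, 9.13, 7.91 and 9.11 in RA/Fsk, Fos at 8.19, 8.19 and 8.29 and at 10.56, 9.53, 9.21 and 9.47. Sgk1, a serum- and cAMP-inducible kinase, rose by 0.87 ± 0.17 (adjusted p = 0.00436). These 6 rises and the fall of Vip passed under every alternative run. Egr2, Fos, Klf9 and Plat also rose with FBS against the same LD cultures, by 2.79, 1.33, 1.86 and 4.07, and between RA/Fsk and FBS the difference was 0.52 for Egr2 (adjusted p = 0.408), 0.14 for Fos (adjusted p = 0.821) and -0.40 for Klf9 (adjusted p = 0.114). Plat was lower in RA/Fsk than in FBS, by 1.05 ± 0.22 (adjusted p = 0.0029).

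The other calls of this list were less firm. Crem, the cAMP-inducible repressor of CREB sites, rose by 0.87 ± 0.26 (adjusted p = 0.0477), from 7.23, 6.83 and 6.51 to 8.12, 7.78, 7.28 and 7.76. Its call ended without LD culture 3 (0.124) or 4 (0.188) or RA/Fsk culture 1 (0.0998), 2 (0.0952) or 4 (0.0867), and with cultures of all groups paired by number (0.0876), and its 3 further probe sets did not pass. Dusp1, a phosphatase that switches off MAP kinases, fell by 1.57 ± 0.37 (adjusted p = 0.0141), from 4.96, 6.23 and 7.29 to 4.89, 4.30, 4.52 and 4.68. The LD cultures spread over 2.33 log2, and the call ended without LD culture 3 (0.0524) or 4 (0.0746), with 0.000259 to 0.167 over the alternatives. Its further probe sets were at -1.74, which passed, and -0.96, which did not. Junb rose by 1.31 (adjusted p = 0.0154, 0.0851 without LD culture 4), and the CREB relative Atf2 fell by 1.05 (adjusted p = 0.0364). A further Junb probe set, at 0.81, did not pass. The 3 falls became 1 without LD culture 3 or 4. Of 33 genes that make, degrade or sense cAMP, the phosphodiesterase Pde4b rose by 1.09 ± 0.20 (adjusted p = 0.00244), from 8.01, 8.23 and 8.49 to 9.34, 9.25, 9.22 and 9.52, and passed under every alternative run. Of its 3 further probe sets 1 passed, at 0.84. Pde2a, another phosphodiesterase, fell by 1.40 ± 0.34 (adjusted p = 0.0142, 0.0542 without LD culture 3 and 0.0557 without LD culture 4). Pde4d differed by -0.04 (-0.64 to 0.57). In this list 1 gene rose and 1 fell, beside 5.62% and 3.32% of all genes. It had 2 rises without RA/Fsk culture 1, and 2 falls without LD culture 1 or RA/Fsk culture 4.

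Promoters show where the cAMP motif lies in these genes. RefSeq promoter sequences of assembly GRCr8 run from 250 bases before to 50 after each gene's start. Of the 15 genes of the cAMP and retinoid lists that were looked up, 12 had an entry. Fos, Plat and Hoxa5 had none, so their promoters were not searched. Atf2 was not among the 15. TGACGTCA was found in Crem, Scg2 and Dusp1, and TGACG on either strand, which includes every TGACGTCA, in these 3 and in Egr2, Junb, Klf9 and Vip. Over all 33469 promoters the shares are 1.83% and 21.2%. These shares count promoter entries, whereas a gene counts here if any of its entries holds a match. The 12 are genes that passed from lists of known cAMP and retinoid genes, so the contrast with all promoters is not a test. The stretches below run from position -160 to -1 before the start, 5′ to 3′ on the gene's strand, with matches to TGACGTCA, TGACG or its reverse complement in capitals. The first 6 lines belong to the 5 genes that rose and the last 2 to genes that fell, so that both directions can be read beside the motif.
Scg2, chr9:88256867-88257026, minus strand: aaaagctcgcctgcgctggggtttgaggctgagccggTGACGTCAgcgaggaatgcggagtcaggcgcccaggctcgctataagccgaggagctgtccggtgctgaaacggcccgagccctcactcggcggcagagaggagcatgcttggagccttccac
Crem, chr17:58984637-58984796, plus strand: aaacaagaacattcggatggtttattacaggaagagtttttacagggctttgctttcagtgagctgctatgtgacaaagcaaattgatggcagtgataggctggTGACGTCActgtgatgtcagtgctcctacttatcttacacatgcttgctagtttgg
Crem, chr17:58985330-58985489, plus strand: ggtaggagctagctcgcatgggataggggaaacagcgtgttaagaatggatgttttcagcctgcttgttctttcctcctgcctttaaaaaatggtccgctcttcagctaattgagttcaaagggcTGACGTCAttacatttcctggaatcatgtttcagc
Egr2, chr20:21054442-21054601, minus strand: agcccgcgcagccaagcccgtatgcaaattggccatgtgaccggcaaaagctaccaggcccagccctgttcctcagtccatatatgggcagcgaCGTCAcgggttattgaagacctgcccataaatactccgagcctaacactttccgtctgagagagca
Klf9, chr1:230126486-230126645, plus strand: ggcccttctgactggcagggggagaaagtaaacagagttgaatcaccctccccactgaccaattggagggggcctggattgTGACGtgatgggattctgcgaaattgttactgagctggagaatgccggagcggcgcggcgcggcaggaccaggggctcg
Junb, chr19:40080966-40081125, plus strand: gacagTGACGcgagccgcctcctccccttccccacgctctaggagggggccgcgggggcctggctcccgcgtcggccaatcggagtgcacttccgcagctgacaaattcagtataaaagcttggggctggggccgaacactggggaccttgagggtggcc
Vip, chr1:44470320-44470479, plus strand: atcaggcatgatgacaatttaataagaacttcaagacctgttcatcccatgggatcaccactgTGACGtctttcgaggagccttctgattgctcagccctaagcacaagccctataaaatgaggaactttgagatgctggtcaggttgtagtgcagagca
Dusp1, chr10:17184693-17184852, plus strand: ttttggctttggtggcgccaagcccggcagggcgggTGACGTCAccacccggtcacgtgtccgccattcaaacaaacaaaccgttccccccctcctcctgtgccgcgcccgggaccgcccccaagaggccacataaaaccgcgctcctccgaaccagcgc
Crem has 3 promoter entries, and the 2 that hold TGACGTCA upstream of the start are shown, at -56 and -35. In Scg2 the motif starts at -123, in Dusp1 at -124, and the shorter form starts at -66 in Egr2, on the opposite strand, at -79 in Klf9, at -155 in Junb and at -97 in Vip. Of the genes with TGACGTCA, Scg2 and Crem rose and Dusp1 fell. The matches describe the sequence only, and binding was not measured.

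Retinoic acid acts through its nuclear receptors. Of 24 genes of retinoid uptake, metabolism, receptors and targets, 2 rose and 1 fell, beside 5.62% and 3.32% of all genes (median -0.04). The homeobox gene Hoxa5 rose by 1.52 ± 0.21 (adjusted p = 0.000237), from 5.48, 5.73 and 5.49 to 6.98, 7.39, 6.74 and 7.27, and the nuclear receptor gene Nr2f1 (COUP-TFI) by 1.39 ± 0.21 (adjusted p = 0.000489), from 8.03, 8.17 and 8.10 to 9.29, 9.74, 9.23 and 9.70. Both had separate groups and passed under every alternative run. A further Nr2f1 probe set, at 0.38, did not pass. Hoxa5 also rose with FBS, by 1.55, and did not differ detectably between the treatments (-0.02, adjusted p = 0.962). Nr2f1 differed between them by 1.18 ± 0.20 (adjusted p = 0.000392).

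The receptor and binding-protein genes that respond to retinoic acid in many cells did not pass. Rarb stood at 3.83, 5.47 and 3.74 in LD and at 4.61, 4.03, 4.03 and 4.55 in RA/Fsk, a difference of -0.04 (-1.0 to 0.91), and all 7 cultures were below the median of all values. Rara differed by 0.13 (-0.26 to 0.52), Crabp1 by -0.42 (-1.29 to 0.44) and Crabp2 by 0.69 (-0.11 to 1.49). The carrier protein gene Ttr fell by 1.28 (adjusted p = 0.0357), but its call was lost without any single LD culture (0.0932, 0.0614 and 0.115 for 1, 3 and 4) or RA/Fsk culture 1 (0.0634), 3 (0.0815) or 4 (0.0662). A further Ttr probe set, at -0.13, did not pass. Direct repeats of AGGTCA or of AGTTCA spaced by 5 bases of any kind, sought on both strands, were in 0 of the 12 promoters. Each form is in only 3 of all 33469 promoters (0.00896%), so 12 promoters are too few for their absence to be informative. Of the retinoid genes called, Nr2f1 and Ttr were among the 12, and Hoxa5 had no promoter entry.

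Glial genes were among those that rose. Of 18 astrocyte genes 3 rose and 0 fell (median 0.18), beside 5.62% and 3.32% of all genes, and 5 rose without LD culture 1. S100b, a calcium-binding protein of astrocytes and Schwann cells, rose by 2.85 ± 0.18 (adjusted p = 4.03e-08), from 8.41, 8.23 and 8.41 to 11.10, 11.33, 11.20 and 11.19. Aldoc, a glycolytic enzyme enriched in astrocytes, rose by 1.77 ± 0.16 (adjusted p = 2.48e-06) and Glul, which makes glutamine from glutamate, by 1.40 ± 0.17 (adjusted p = 5.46e-05). All 3 passed under every alternative run, and 4 of their 5 further probe sets passed too. The exception is a dim second S100b probe set, at 1.33 (adjusted p = 0.085). The glutamate transporter Slc1a3 differed by 0.20 (-0.45 to 0.86) and the water channel Aqp4 by 0.08 (-0.69 to 0.86).

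Of 15 oligodendrocyte lineage genes 4 rose and 0 fell (median 0.25), beside 5.62% and 3.32% of all genes. Cd9, a tetraspanin, rose by 1.94 ± 0.14 (adjusted p = 2.09e-07), the secreted lipase Enpp2 by 2.17 ± 0.33 (adjusted p = 0.000444), Mbp, the myelin basic protein gene, by 2.45 ± 0.49 (adjusted p = 0.00442) and Cnp, a myelin enzyme, by 0.78 ± 0.15 (adjusted p = 0.00389). Mbp stood at 6.79, 6.16 and 6.48 in LD and at 9.63, 8.79, 8.16 and 9.12 in RA/Fsk, with no overlap. Cd9, Enpp2 and Mbp passed under every alternative run, and the call of Cnp ended in the paired fit of the 2 groups (0.0876, with 0.00049 to 0.0876 over the alternatives). Pdgfra, the receptor of oligodendrocyte precursors, differed by -0.08 (-0.67 to 0.50), and other myelin genes on the array, such as Mag at 0.14 and Mog at -0.73, did not pass. Of 10 Schwann cell and neural crest genes 3 rose and 0 fell (median 0.37), beside the same shares of all genes. The 3 are Egr2, Mbp and the neuregulin receptor Erbb3, at 0.81. Erbb3 lost its call without LD culture 1 (0.0605) or 3 (0.141) or RA/Fsk culture 1 (0.0503) or 4 (0.0685), and 1 gene of this list fell without LD culture 4.

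Of 24 genes of neural progenitors and radial glia 2 rose and 2 fell, beside 5.62% and 3.32% of all genes, and 16 of the 24 lay below 0 (median -0.20). Fgfr1, a growth factor receptor, rose by 1.64 ± 0.27 (adjusted p = 0.000828, with 1 of its 2 further probe sets also past) and Id2, an inhibitor of differentiation factors, fell by 0.99 ± 0.24 (adjusted p = 0.0145, 0.0718 without LD culture 3). The other 2 calls, Cd24 at 1.39 and Sox11 at -0.76, reached adjusted p values of 0.208 and 0.221 under the alternatives. Cd24 was lost without LD culture 3 or 4 or RA/Fsk culture 1, 3 or 4, and Sox11 without LD culture 3 or 4 or RA/Fsk culture 1, 2 or 4. Further Cd24 probe sets, at -0.13 and 0.44, did not pass. Nes, which encodes the progenitor filament nestin, stood at 9.93, 10.49 and 10.62 in LD and at 9.29, 10.27, 10.77 and 9.84 in RA/Fsk, a difference of -0.31 (-0.86 to 0.25). The radial glia gene Fabp7 differed by 0.44 (-0.14 to 1.02) and Vim by -0.46 (-0.84 to -0.08, adjusted p = 0.136).

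Markers of other cell types that the cultures could hold were also summed. Summed intensities over 16 microglia and leukocyte genes were 690 to 790 in LD and 491 to 791 in RA/Fsk, with 10 of the 16 below the median of all values in both groups. Coro1a, which fell, was the only gene of this list to pass, and 1 gene rose without LD culture 1 or RA/Fsk culture 2. For 10 endothelial genes the sums were 312 to 489 and 246 to 446, with 7 of the 10 below that median in both groups, and 0 passed. For 16 fibroblast and mural genes they were 588 to 748 and 725 to 1065, again with 10 of the 16 below that median. Among them Mgp, a matrix calcification inhibitor, rose by 1.81 ± 0.38 (adjusted p = 0.00615) and S100a4 by 1.16 ± 0.23 (adjusted p = 0.00441), while the collagens Col1a1 and Col3a1 differed by -0.47 and -0.66 without passing. Mgp (0.0739) and S100a4 (0.0543) did not pass in the paired fit of the 2 groups. The astrocyte sums were 2958 to 3507 and 9058 to 10404, and the oligodendrocyte sums 3252 to 4054 and 5016 to 7916. Such sums are on the linear scale, so bright genes weigh most. The astrocyte sums include the 3 bright genes that rose, S100b, Aldoc and Glul. The other 15 of the 18 did not pass, and the list median was 0.18. The Schwann cell and neural crest sums were 2149 to 2265 and 2229 to 4109. No listed marker was at 0 in all cultures, and the part of other cells in these differences was not tested.

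Most genes of DNA replication and mitosis had lower means in RA/Fsk, with 36 of 39 differences below 0. Of the 39, 18 fell, 21 did not pass and 0 rose, against 3.32% of all genes that fell, and the median was -0.77 (-0.92 to -0.57 over the alternatives). They include Mcm6 and Mcm7, subunits of the replicative helicase, at -1.0 ± 0.19 (adjusted p = 0.00344) and -0.85 ± 0.17 (adjusted p = 0.00436), and Prim1, the primase that starts each DNA strand, at -1.15 ± 0.23 (adjusted p = 0.00442). Dut, which keeps uracil out of DNA, fell by 1.03 ± 0.20 (adjusted p = 0.00342). Mcm6 stood at 10.59, 11.04 and 10.86 in LD and at 9.45, 10.16, 9.42 and 10.30 in RA/Fsk, and Dut at 10.24, 10.37 and 10.34 and at 9.35, 9.5, 8.61 and 9.70. Both remained well above the median of all values, and in Dut and Prim1 RA/Fsk culture 3 was the lowest. The polymerase subunit Pola1 fell by 2.05 ± 0.35 (adjusted p = 0.00122) and was dim in both groups. The replication clamp Pcna fell by 0.83 ± 0.21 (adjusted p = 0.018). 5 of the 18, Mcm6, Mcm7, Prim1, Dut and the replication protein Rpa3, passed under every alternative run. A further Prim1 probe set, at -0.93 (adjusted p = 0.053), did not pass. The 18 became 11 without LD culture 1 or 4, 9 without LD culture 3 and 8 in the fit of the 2 groups alone. Pcna lost its call without LD culture 3 (0.0659) or 4 (0.0552), and Pola1 in the paired fit of the 2 groups (0.0711).

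Among 21 D-type cyclins, kinase inhibitors and exit genes 5 rose and 0 fell (median 0.03), against 5.62% and 3.32% of all genes. Beside Ccnd2, the related Ccnd3 rose by 1.97 ± 0.19 (adjusted p = 4.87e-06), from 8.48, 8.19 and 8.07 to 10.36, 10.37, 9.62 and 10.50, and 2 of its 3 further probe sets passed. Cdkn2b, an inhibitor of the kinases that D cyclins activate, rose by 1.68 ± 0.32 (adjusted p = 0.00332), and Cdkn1b, the inhibitor p27, by 1.35 ± 0.28 (adjusted p = 0.00564). Cdk5, a kinase active in neurons, rose by 0.70 ± 0.16 (adjusted p = 0.0102). Ccnd1, the third D cyclin, differed by -0.25 (-0.66 to 0.15), with overlapping groups, so the D cyclins did not move together. Ccnd2, Ccnd3 and Cdkn2b passed under every alternative run, and Cdkn1b (0.102) and Cdk5 (0.0708) lost their calls in the paired fit of the 2 groups. The calls for all 5 held without any single culture. With FBS, Ccnd2 rose by 3.0 and Ccnd3 by 1.5, and neither differed between the treatments past the threshold (0.70, adjusted p = 0.127, and 0.47, adjusted p = 0.0755).

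**Figure D4:**
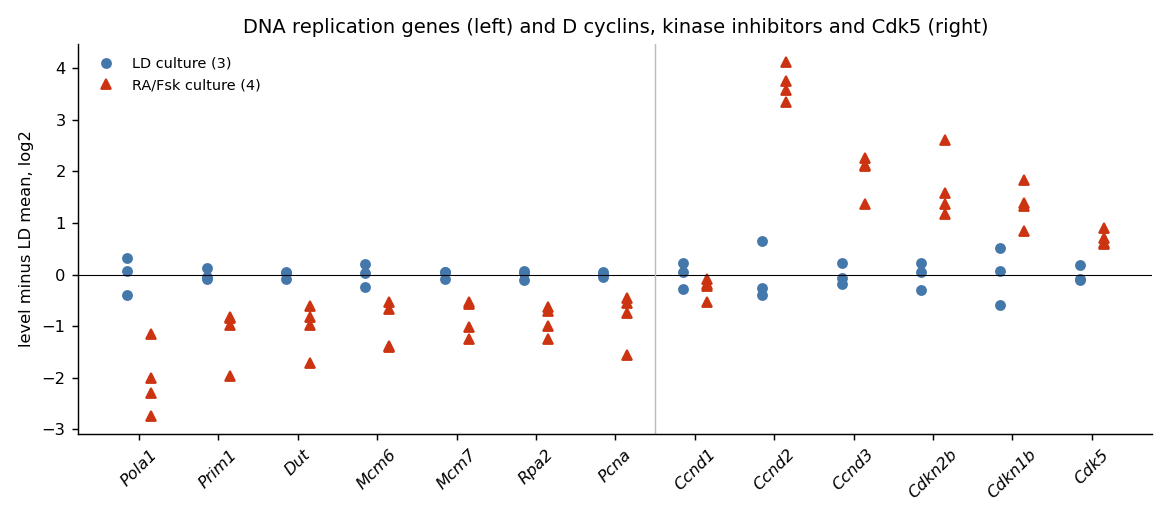
Level of each culture minus the LD mean of the gene (log2), with LD cultures as circles (n = 3) and RA/Fsk cultures as triangles (n = 4), for 7 DNA replication genes (left of the line) and for D cyclins, kinase inhibitors and Cdk5 (right). RA/Fsk cultures lie below all LD cultures for every replication gene shown and above them for Ccnd2, Ccnd3, Cdkn2b, Cdkn1b and Cdk5, while Ccnd1 overlaps.

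Cholesterol synthesis genes were lower and varied between the treated cultures. Of 16 measured, 5 fell and 0 rose (median -0.78, with -1.06 to -0.66 over the alternatives), against 3.32% of all genes that fell. Fdps stood at 12.05, 12.20 and 12.05 in LD and at 10.08, 10.06, 11.71 and 10.31 in RA/Fsk, so RA/Fsk culture 3 lay close to LD and the other 3 well below. Idi1, the isomerase just upstream, fell by 1.19 ± 0.24 (adjusted p = 0.00491) and, like Fdps, passed under every alternative run, although a second, dim Idi1 probe set, at -0.06, did not pass. Msmo1, a sterol demethylase, fell by 1.25 ± 0.32 (adjusted p = 0.0195), with RA/Fsk culture 3 at 11.42 inside the LD range of 11.26 to 11.69 and the others at 9.32, 9.95 and 10.04. Without RA/Fsk culture 3 the 5 falls became 14 of 16, whereas they became 2 without LD culture 3, 3 without LD culture 4 or RA/Fsk culture 2, and 2 with median centring. Dhcr7 fell by 0.68 and lost its call without LD culture 3 (0.0577) or 4 (0.0632). Msmo1 lost it without LD culture 3 (0.0899) or RA/Fsk culture 2 (0.0541). Fatty acid genes did not follow, with 3 rises and 1 fall among 19 (median 0.30), beside 5.62% and 3.32% of all genes. The fall, of the acyl-CoA synthetase Acsl5, was lost without LD culture 3 (0.086), and 2 genes fell without RA/Fsk culture 3. The elongase Elovl5 rose by 1.16 ± 0.18 (adjusted p = 0.000603), from 9.13, 10.06 and 9.73 to 10.53, 10.79, 10.93 and 10.97, and Acsl4, another acyl-CoA synthetase, by 1.29 ± 0.27 (adjusted p = 0.00613), both under every alternative run. The 2 further probe sets of Acsl4 did not pass.

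Housekeeping lists shifted slightly downward, to be read beside the 3.32% of all genes that fell. Of 42 ribosomal protein genes 11 fell and 0 rose, with a median of -0.38 that was -0.20 after quantile normalization. Leaving out LD culture 1 or 3 brought the 11 to 3 or 4, leaving out RA/Fsk culture 1, 2 or 4 brought them to 17, 5 or 6, and they were 5 with quantile normalization or median centring. Of 25 proteasome genes 4 fell and 0 rose (median -0.29), and the 4 became 0 without LD culture 3 or with median centring. They became 1 without RA/Fsk culture 2 and 2 without RA/Fsk culture 4. Of 53 oxidative phosphorylation genes 1 fell, Ndufab1, by 0.59 (median -0.13), a call lost without LD culture 1 (0.0679), 3 (0.107) or 4 (0.0541) or RA/Fsk culture 4 (0.0555). Without RA/Fsk culture 1, 4 of these genes fell.

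Matrix and cytoskeletal genes moved in both directions, to be read beside the 5.62% of all genes that rose and the 3.32% that fell. Of 67 extracellular matrix and integrin genes 6 rose and 4 fell (median 0.16). Plat is counted here too, Timp1, an inhibitor of matrix proteases, rose by 0.62 ± 0.11 (adjusted p = 0.00157), from 8.76, 8.74 and 8.78 to 9.47, 9.39, 9.43 and 9.24, and the collagen Col5a1 by 1.22 ± 0.21 (adjusted p = 0.00171, 0.0509 in the paired fit of the 2 groups). Thbs4 was the largest fall, and the 4 falls became 2 without LD culture 4. Of 36 genes of actin filaments and the serum response, 2 rose and 3 fell, with the rises near the share of all genes. Myl9, a smooth muscle myosin light chain, rose by 2.52 ± 0.37 (adjusted p = 0.000306) and the LIM protein Csrp1 by 1.12 ± 0.18 (adjusted p = 0.000805), while its relative Csrp2 fell by 1.48 ± 0.23 (adjusted p = 0.000548). These 3 passed under every alternative run. Actb and Ezr fell too, by 0.47 and 1.02, and leaving out LD culture 3 or 4 brought the 3 falls to 1.

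Some growth factor and trophic receptor genes rose, to be read beside the 5.62% of all genes that rose and the 3.32% that fell. Of 47 genes of the FGF, PDGF, IGF, EGF and VEGF families 4 rose and 0 fell (median 0.11), with Tgfa, an EGF receptor ligand, at 1.47 ± 0.24 (adjusted p = 0.000734), from 7.41, 7.39 and 7.50 to 9.26, 8.98, 8.25 and 9.12. Of 13 neurotrophin and GDNF family genes 2 rose, Gfra1, the GDNF co-receptor, by 2.22 ± 0.22 (adjusted p = 7.23e-06), from 5.70, 6.46 and 6.55 to 8.53, 8.73, 7.95 and 8.60, and Ntrk2, the BDNF receptor, by 1.19 ± 0.28 (adjusted p = 0.0137, 0.0851 without LD culture 3). A second Ntrk2 probe set differed by -0.35 (adjusted p = 0.721) and did not pass. Bdnf itself differed by 0.09 (-0.46 to 0.63) and Ret, the signalling partner of Gfra1, by 0.04. Of 36 antioxidant and detoxification genes 6 rose and 0 fell (median 0.17). Beside Sod3, the glutathione transferases Gsta4 and Gstt2 rose by 2.37 ± 0.37 (adjusted p = 0.000608) and 1.13 ± 0.19 (adjusted p = 0.000976), and leaving out LD culture 3 or RA/Fsk culture 4 brought the 6 to 3. None fell in the full data, whereas 1 fell without LD culture 4 or RA/Fsk culture 1 and 3 without RA/Fsk culture 3. Of 37 heat shock and stress genes 4 rose and 3 fell (median -0.06), with the small heat shock protein Cryab at 1.61 ± 0.17 (adjusted p = 1.24e-05), the stress phosphatase subunit Ppp1r15a at 1.79 ± 0.26 (adjusted p = 0.000272) and the mitochondrial chaperone Hspe1 at -0.63 ± 0.13 (adjusted p = 0.00622). A further Hspe1 probe set, at -0.34 (adjusted p = 0.237), did not pass. Leaving out LD culture 3 brought the 3 falls to 1, and there were 5 without RA/Fsk culture 4.

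FBS and HD cells were set beside RA/Fsk for the genes above. Their comparisons with LD use the same LD cultures, so the direct difference between RA/Fsk and FBS, or RA/Fsk and HD, is given as the test. RA/Fsk differed from FBS at 1606 of 8740 probe sets (18.4%) and from HD at 889 (10.2%). Acy1, the aminoacylase that frees amino acids from their acetyl group, was 8.51 ± 0.14 (SD, n = 3) in LD, 8.60 ± 0.09 (n = 4) in FBS, 8.47 ± 0.23 (n = 3) in HD and 11.04 ± 0.18 (n = 4) in RA/Fsk. It rose by 2.52 ± 0.14 against LD (adjusted p = 7.03e-09), 2.44 ± 0.13 against FBS (adjusted p = 8.47e-10) and 2.57 ± 0.14 against HD (adjusted p = 5.35e-09). Pnlip, the pancreatic lipase gene, was higher in RA/Fsk than in FBS by 3.16 ± 0.34 (adjusted p = 4.59e-06) and than in HD by 2.79 ± 0.37 (adjusted p = 0.000144). It stood at 8.81 ± 0.28 in LD, 8.38 ± 0.22 in FBS, 8.75 ± 0.64 in HD and 11.54 ± 0.89 in RA/Fsk and its other probe set rose by 3.15 against LD. These 2 genes lie outside the rule for named genes and were chosen after their values were seen.

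Tesc and Ccl2 rose with FBS as well, by 2.74 and 1.17, but were higher in RA/Fsk than in FBS by 3.91 ± 0.30 (adjusted p = 7.55e-08) and 3.54 ± 0.25 (adjusted p = 3.79e-08). Among the other 10 largest rises, Pgc, Camk2n1 and Abhd14b were higher in RA/Fsk than in FBS, by 2.44, 2.15 and 1.91, each past the threshold. Itga7 was lower by 1.31 ± 0.28 (adjusted p = 0.00288), as was Plat. Ccnd2, Egr2, Cxcl14, Sod3 and Pmepa1 differed by 0.70, 0.52, 0.29, -0.13 and -0.26 and did not pass. Calca was 2.26 ± 0.33 and Scg2 1.88 ± 0.35 higher in RA/Fsk than in FBS (adjusted p = 0.000114 and 0.000952), Tgfa 1.98 ± 0.22 (adjusted p = 5.72e-06), Pde4b 1.47 ± 0.19 (adjusted p = 2.31e-05) and Elovl5 1.25 ± 0.17 (adjusted p = 5.31e-05). Against HD these 5 were higher by 3.24, 2.55, 1.51, 0.86 and 1.12, each past the threshold. The opposite held for Cst3, the secreted protease inhibitor cystatin C and one of the brightest genes of the array. It stood at 13.61, 13.80 and 13.44 in LD and at 12.53, 12.20, 12.44 and 12.17 in RA/Fsk, a fall of 1.28 ± 0.17 (adjusted p = 0.000125), and its other probe set fell by 1.76. FBS and HD cells differed from LD by -0.04 and -0.07, and RA/Fsk lay below them by 1.24 and 1.21 (adjusted p = 2.2e-05 and 0.000222). Dusp1 moved in opposite directions, at -1.57 with RA/Fsk and 2.41 with FBS, and differed by -3.98 ± 0.35 between the treatments (adjusted p = 4.69e-07). Against HD its difference was -0.49 (adjusted p = 0.506). S100b, in contrast, was 0.31 apart between RA/Fsk and FBS (adjusted p = 0.237).

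**Figure D5:**
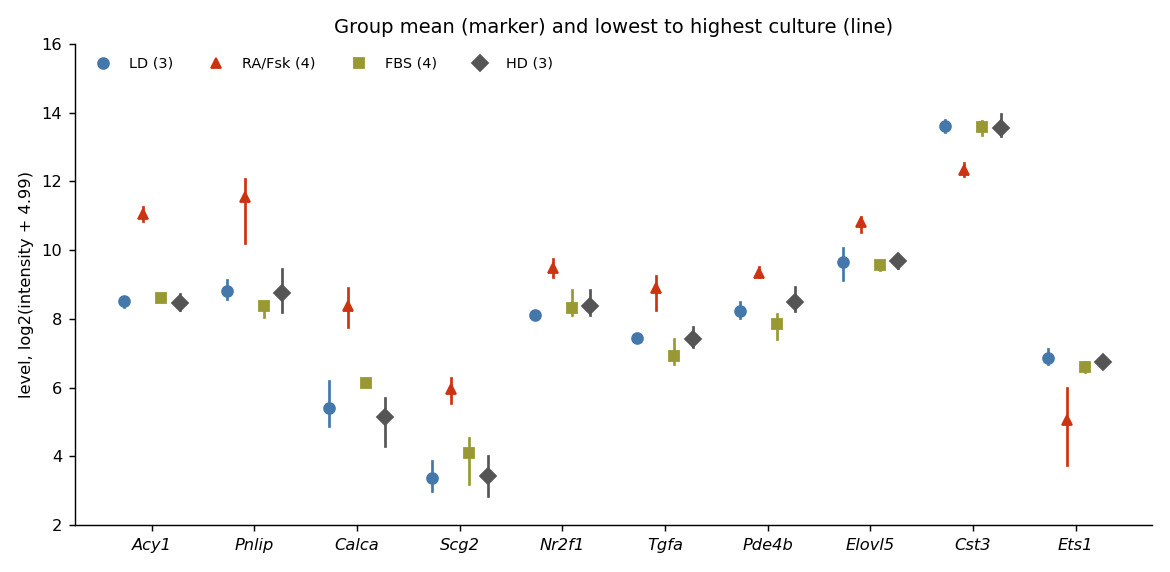
Mean level (marker) and lowest to highest culture (line) of 10 genes in LD (n = 3), RA/Fsk (n = 4), FBS (n = 4) and HD (n = 3) cultures, on the log2(intensity + 4.99) scale. Acy1 and Pnlip are flat in the 3 other groups and higher in RA/Fsk, and Cst3 and Ets1 are lower in RA/Fsk.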

How the data were processed

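Gene expression was measured on 20 Affymetrix rat arrays, 1 per sample. The deposited values are probe set intensities on a linear scale, 1 column per array. No source used here states how the authors made these intensities, but the mean of each array after leaving out 2% at each end was 200.28 to 200.46, so the table was read as scaled. The number of arrays limits the precision, and the median SE of RA/Fsk minus LD was 0.28 log2.

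Of 8799 probe sets, 59 controls were left out. The remaining 8740 were taken as log2(intensity + 4.99), the added value being 10% of the median positive intensity of 49.9. Repeat arrays of a number were averaged, and limma 3.58.1 in R 4.3.3 was fitted to all 4 groups with an intensity trend (10 residual degrees of freedom) and Benjamini-Hochberg adjustment over all probe sets. The steps were tested on simulated data: for RA/Fsk minus LD, 8.57% of simulated differences of 0.5 log2, 40.3% of those of 1 log2 and 87.5% of those of 2 log2 were found again among 8740 probe sets, and 6.11% of the calls were false. Each of 5 runs changed 200 probe sets, with noise drawn independently for each probe set and culture. The real data had more calls, and cultures of the same number deviated together, so these rates may not hold there. Names came from the platform annotation: 7006 probe sets had 1 symbol, 308 several and 1426 none, and 6985 of the 7006 were found in the RefSeq gene table. Each gene is given by its probe set with the highest mean, except that the largest rises and falls use the brightest probe set among those that met the naming rule. This set was not the gene's brightest for Itga7, Cxcl14, Atp1b2, Tmpo and Slc34a1. Further probe sets also did not pass for Napa (0.46), Erbb3 (0.71), Dhcr7 (-0.37), Acsl5 (-0.44), Ndufab1 (-0.49 and -1.06), Ncl (-0.67) and Bmal1 (1.37).

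Genes were named by size, 12 rises and 12 falls, from probe sets with 1 symbol that passed, had separate cultures and a brighter group mean at or above the overall median. Each list added at most 4 passed members, those of lowest adjusted p, and a set of markers was named whatever their result. Npy, Adm, Cpe, Nppc, Sgk1, Junb, Mcm7, Prim1, Rpa3, Cdk5, Acy1, Pnlip, Slc18a1, Stx4, Stx5, Atf2, Actb, Mag, Mog, Col1a1, Col3a1 and the genes of the closing observations lie outside this rule, having been picked with their values in view. The comparison, gene lists and markers were chosen with earlier results of these data known. RA/Fsk and LD cultures of the same number deviated together, at r = 0.327, 0.157 and 0.108 for numbers 1, 3 and 4, against -0.202 to 0.03 for different numbers, so a fit with the number as a block was run beside the unblocked one. The other alternatives were quantile normalization, median centring, pseudocounts of 1 and 50, filters on the dimmest 25% and 50%, other fits, and leaving out each culture. The GAPDH 5′ to 3′ ratio, a measure of RNA quality, differed by 0.04 log2 between RA/Fsk and LD (exact permutation test, two-sided p = 0.743, smallest possible 0.0571).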

Additional observations from a re-analysis of the deposited data

Results flagged for a closer look

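Among the 162 named genes, 12 had a single RA/Fsk culture far from the other 3, by a gap that, as a share of the group's range, exceeded Dixon's 95% critical value. Chance gives about 1 such gene in 20 per group tested, and 8 of the 12 concern RA/Fsk culture 3, 2 concern culture 4, and cultures 1 and 2 have 1 each.

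In RA/Fsk culture 3 the mevalonate enzyme Fdps stood at 11.71 against 10.06 to 10.31 in the others, the acyl-CoA synthetase Acsl5 at 7.66 against 7.08 to 7.12, and the citrate carrier Slc25a1 at 10.36 against 9.63 to 9.74. The same culture was low for the lipase Enpp2 (7.45 against 8.96 to 9.28), for Pnlip (10.21 against 11.81 to 12.07), for the cyclin Ccnd3 (9.62 against 10.36 to 10.50), for the carboxypeptidase Cpe (6.41 against 6.89 to 6.95) and for the primase Prim1 (7.62 against 8.61 to 8.77). In RA/Fsk culture 4 Aldoc stood at 12.27 against 12.02 to 12.04 and Glul at 10.91 against 10.47 to 10.54. In RA/Fsk culture 1 Rab3a stood at 6.18 against 7.01 to 7.08, and in RA/Fsk culture 2 Pam stood at 8.39 against 8.25 to 8.28.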

How the results depend on the processing

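Of 138 named genes that passed, 69 passed in the same direction under all of the 21 alternatives in which they were measured, 0 reversed, and 0 of the named genes that did not pass did so under any. The 721 changed probe sets (412 up, 309 down) became 362 (249 up, 113 down) with the RA/Fsk and LD cultures alone. With the replicate block on RA/Fsk and LD cultures 1, 3 and 4 they became 362 (241 up, 121 down), and 55 of the 138 genes lost their call. The block over all groups gave 756 and ended the call of 8 of the 138. Without the intensity trend 203 fell. Leaving out single cultures gave 511 to 832 changed, 326 to 452 up and 185 to 380 down, with the lowest of the last without LD culture 3. A pseudocount of 50 moved 42 of the 138 differences by more than 1.5 times. Genes below the median of all values have small signal over background, so their differences are the least certain. The block changed no call beyond those counted or printed beside a result.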

Other observations

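Lysosomal genes were not among the lists of the report and were grouped after their values were seen, so they have no test as a group. Of 35 measured, 16 rose and 0 fell, beside 5.62% and 3.32% of all genes, with a median difference of 0.61. Grn, the progranulin gene, rose by 1.63 ± 0.21 (limma, adjusted p = 0.000111), from 9.65, 9.87 and 9.72 in LD to 11.01, 11.34, 12.13 and 11.02 in RA/Fsk. The protease Ctsl rose by 1.21 ± 0.18 (adjusted p = 0.0004), and both passed under every alternative run. The membrane proteins Lamp1 and Lamp2 rose by 0.86 and 0.97, while their further probe sets, 3 of Lamp1 (-0.09 to 0.91) and 2 of Lamp2 (0.51 and 0.66), did not pass. Lamp1 lost its call without LD culture 1 (0.052), and Lamp2 without LD culture 1 (0.0605) or 4 (0.0554).

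Of 31 genes of the nucleolus and RNA processing, grouped in the same way, 13 fell and 1 rose (median -0.55), beside 3.32% and 5.62% of all genes. The splicing regulators Hnrnpa1 and Tra2b fell by 0.94 ± 0.16 (adjusted p = 0.00155) and 1.10 ± 0.22 (adjusted p = 0.00442) and passed under every alternative run, but the 3 further probe sets of each did not pass. Ncl, which encodes nucleolin, fell by 0.64 and lost its call with median centring (0.0714). Of 12 circadian clock genes, also grouped after their values were seen, 3 rose and 0 fell, beside the same shares of all genes. Bmal1, an activator of the clock, rose by 1.47 ± 0.33 (adjusted p = 0.00955), and Cipc, an inhibitor of its partner, by 1.03 ± 0.20 (adjusted p = 0.00389), and both lost their call in the paired fit of RA/Fsk and LD cultures 1, 3 and 4 (0.0669 and 0.0626).

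Acy1 and Abhd14b, which rose by 2.52 and 3.07, lie close together on chromosome 8 in the RefSeq annotation of assembly GRCr8, with Abhd14a between them.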
